A study of Homo sapiens with 6 samples.

Results

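Replication-dependent histone genes code for the H1 linker histones and for the core histones H2A, H2B, H3 and H4 that package newly made DNA. The members described here are the protein-coding rows of the count table whose current symbol belongs to the H1-1 to H1-6, H2AC, H2BC, H3C or H4C series, which carried HIST1, HIST2, HIST3 and HIST4 names before. There were 70 of them among 58051 gene rows: 6 H1, 17 H2A, 19 H2B, 13 H3 and 15 H4 genes. Of the 70, 56 had at least 1 count, and 28 passed the filter on low counts and were tested. The other 42 are given as counts only.

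The 6 libraries came from U2OS, an established human osteosarcoma cell line. Of these, 3 came from cells given a scrambled siRNA (siSCR, the control) and 3 from cells given an siRNA against SURF2 (siSURF2). SURF2 is a nucleolar protein, and the series concerns its part in the nucleolar stress response. Both groups had 2 rounds of siRNA at an interval of 49 h and were taken at 96 h, in DMEM with 10% serum, and polyA libraries were made from 2 µg of total RNA. All cells are of 1 cell line. Nothing in the labels ties the 3 libraries of a group to separate cultures, so the error behind each p-value is that between libraries and may be technical only.

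Most histone mRNAs of this kind end, without a polyA tail, just after a conserved stem-loop in the RNA. SLBP binds that stem-loop, and the U7 small nuclear RNP guides the cut behind it. NPAT, a target of cyclin E and CDK2, switches the genes on when cells enter S phase, and ERI1 and UPF1 take part in removing the mRNAs when DNA synthesis stops. A share of the same genes also makes transcripts that run past the stem-loop, or are spliced around it, and carry a polyA tail. Libraries selected for polyA catch mainly this second form, so the values below do not describe the whole pool of histone RNA. How much RNA without a tail was carried over into these libraries was not measured.

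Stem-loops were searched in the GENCODE release 29 transcripts as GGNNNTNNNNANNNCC with every stem base paired, G-T pairs allowed, on the sense strand after the stop codon. Matches were found in 31 of the 70 members. They are shown because the position of the annotated 3′ end relative to this element divides the members below. Stem bases are in lower case, and the loop is in capitals:
Most common form, in 17 members, H2AC6, H2BC21, H2BC6 and H3C10 among them: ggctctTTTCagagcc
In 4 members, H2BC4, H2BC5, H2BC7 and H3C8: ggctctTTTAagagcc
In 5 H4 genes, H4C8, H4C16 and H4C5 among them: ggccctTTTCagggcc
In 3 H4 genes, H4C9, H4C14 and H4C15: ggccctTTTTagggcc
In H2AC11, with a G-T pair in the stem: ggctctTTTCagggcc
In H3C6: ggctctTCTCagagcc
The 8 H4 genes with a match had the ggccct stem, and none of the 23 matches in H2A, H2B and H3 genes had it. No match was found in an H1 gene. For 34 members the annotated model holds no bases after the stop codon, so the element could not appear in it.

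In the 250 bases upstream of the RefSeq start (GRCh38.p14), searched on both strands, 64 members had an entry. CCAAT was present in 54 (84.4%, against 33.0% of all 27305 promoters), TATAAA in 42 (65.6% against 11.1%) and the octamer ATTTGCAT, the site of POU2F1, in 26 (40.6% against 1.66%). AAACACA, the H1 box, was in 6 (9.38% against 4.95%), which were the 6 H1 genes. CCAAT was found upstream of all 51 H1, H2A, H2B and H3 genes with an entry but of only 3 of 13 H4 genes. The octamer was found upstream of 11 of 16 H2A, 14 of 18 H2B, 1 of 11 H3, 0 of 13 H4 and 0 of 6 H1 genes. No promoter had matches of 2 of these motifs that shared bases.

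The 150 bases upstream of the RefSeq start of 4 members are printed: H2BC12, which had the most counts, H4C9, the H4 gene with the most counts, and the neighbours H2BC11 and H2AC11, which share an interval and gave unlike results. Motif matches on either strand are in capitals, and each runs 5′ to 3′ on the gene's strand.
H2BC12, chr6:27146859-27147008, minus strand: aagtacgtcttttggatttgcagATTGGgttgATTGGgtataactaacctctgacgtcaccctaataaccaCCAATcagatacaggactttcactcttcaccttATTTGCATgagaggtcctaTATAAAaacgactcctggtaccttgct
H4C9, chr6:27139132-27139281, plus strand: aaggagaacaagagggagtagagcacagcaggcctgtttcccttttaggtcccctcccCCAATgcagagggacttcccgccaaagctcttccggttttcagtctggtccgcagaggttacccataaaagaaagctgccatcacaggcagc
H2BC11, chr6:27132796-27132945, minus strand: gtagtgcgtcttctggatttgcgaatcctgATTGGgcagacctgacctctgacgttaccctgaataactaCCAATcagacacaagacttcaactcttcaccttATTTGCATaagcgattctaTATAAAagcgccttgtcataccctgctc
H2AC11, chr6:27132893-27133042, plus strand: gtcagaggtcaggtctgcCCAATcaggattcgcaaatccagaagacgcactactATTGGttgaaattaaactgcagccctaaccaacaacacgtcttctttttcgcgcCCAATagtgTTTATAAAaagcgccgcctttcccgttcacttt
The H4C9 window lies inside the GENCODE gene given below, whose model starts further upstream. In H2AC11 the last capitals are a forward and a reverse match of TATAAA that overlap.

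Libraries held 17123333 to 19688089 counts in genes. SURF2, the target of the siRNA, stood at 36.2, 35.8 and 32.3 CPM (counts scaled to a common library size with TMM factors) in the siSCR libraries and at 3.74, 3.56 and 3.20 in the siSURF2 libraries, a log2 fold change of -3.31 ± 0.10 (SE). siSURF2 replicate 2 stood somewhat apart within its group: a chi-square of its counts per degree of freedom was 8.72 and 10.2 against its group mates, while the other within-group pairs gave 2.51 to 4.41. Counts of called members are therefore also given without it. Of the osteoblast markers, RUNX2 was at a mean of 22.8 CPM in siSCR and 23.1 in siSURF2 and SPARC and COL1A1 were high, but SP7, BGLAP and COL1A2 were at or near 0 and IBSP and TWIST1 had 0 counts. Among the osteoblast markers SPP1 (1.67), SPARC (0.47) and COL1A1 (0.43) were higher in siSURF2 and ALPL (-2.07) lower, by log2 fold change. Of 5 epithelial markers tested EPCAM was higher (0.99), and KRT8 (-0.50), KRT18 (-0.69) and CDH1 (-2.70) were lower. Their part in the members' values was not tested, and 0 of 6 blood markers passed the filter. In the table as a whole 9131 of 17561 genes tested (52.0%) differed between the groups at an adjusted p under 0.05 (edgeR quasi-likelihood test, Benjamini-Hochberg over all genes tested), 4535 higher (25.8%) and 4596 lower (26.2%) in siSURF2.

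RNA of these genes in the polyA libraries was higher in siSURF2 cells in sum and in 12 of the 28 members tested. The 12 were H1-2, H2AC11, H2AC12, H2BC5, H2BC6, H2BC7, H2BC12, H2BC21, H3C10, H4C8, H4C9 and H4C14. 1 member, H2AC6, was lower, and 15 did not pass the threshold. Over the whole table the share called higher was 25.8% and the share called lower 26.2%. The median log2 fold change of the 28 was 0.47, against 0.0042 over all genes tested, and 23 of the 28 were positive. In 13 members all 3 siSURF2 libraries lay above all 3 siSCR libraries, and in 0 all lay below, where 28.6% of all genes did each. 4 members (H2AC12, H2AC19, H3C1 and H4C12) would not pass the filter on the siSCR libraries alone, and of the 24 others 11 were higher and 1 was lower.

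Calls were also counted by depth. Among the 10 members with at least 1000 counts over the 6 libraries, 7 were higher, 1 was lower and 2 did not pass, beside 29.8% higher and 34.3% lower among all 10470 genes of that depth. Among the 18 tested members with fewer counts 5 were higher (27.8%), 0 were lower and 13 did not pass, although 16 of the 18 log2 fold changes were positive. Of all genes tested, whatever their depth, 25.8% were higher and 26.2% lower, so the share called higher was near that of the table. The count of 12 was 11 without siSURF2 replicate 2, and 9 to 12 when any 1 library was left out. DESeq2 called 9 higher and 1 lower, and limma-voom 12 and 1.

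The choice of scaling mattered for all 13 calls. When library sizes were set by the ERCC spike-in counts in place of TMM, edgeR called 0 members higher and 0 lower, with 4 higher and 0 lower at an unadjusted p under 0.05. Adjusted p-values of the 13 then ran from 0.095 to 0.78. Calls over all genes went down to 802 higher and 825 lower in that setting, and the spike-in share of counts varied from 1.12% to 1.72% between libraries, within both groups. Fold changes moved little: the members' median was 0.41 and that of all genes -0.035. In the other 15 settings tried, H1-2, H2AC11, H2BC5, H2BC6, H2BC12, H2BC21, H3C10, H4C8 and H4C9 passed the threshold each time, with adjusted p-values of at most 0.038.

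**Figure D1:**
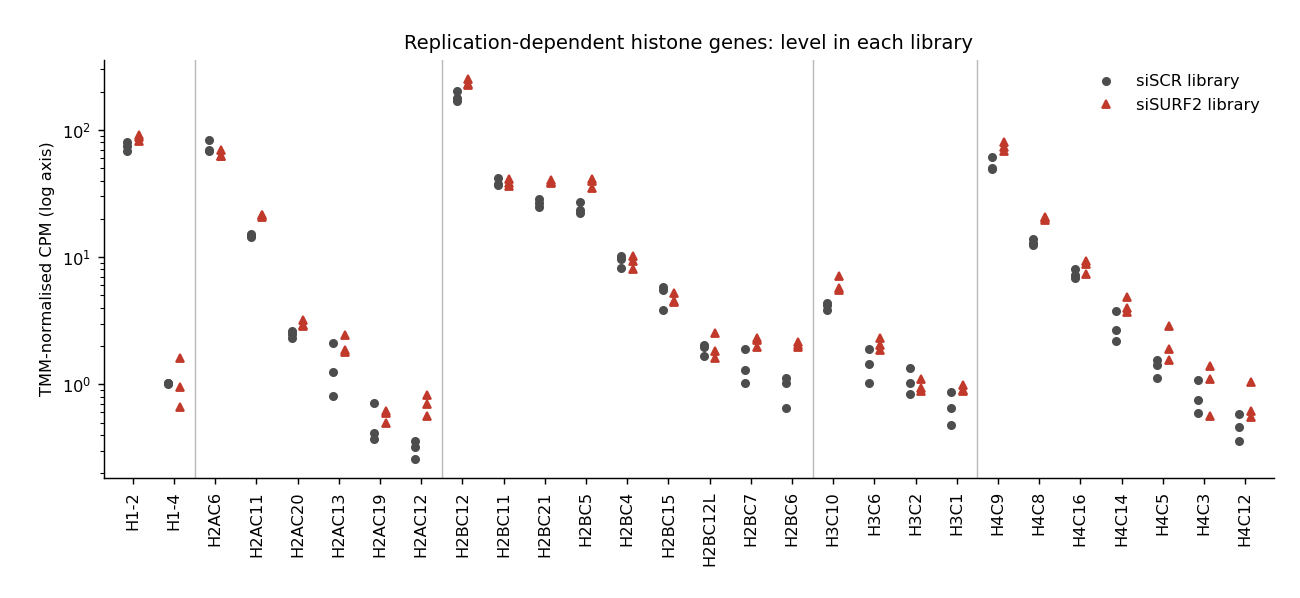
Level of each of the 28 tested members in each library, as TMM-normalised CPM on a log axis, with grey circles for siSCR and red triangles for siSURF2 and vertical lines between the classes H1, H2A, H2B, H3 and H4. H2BC12 lies highest, and the triangles of H2AC11, H2BC5, H2BC21, H4C8 and H4C9 lie above all of their circles.

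**Figure D2:**
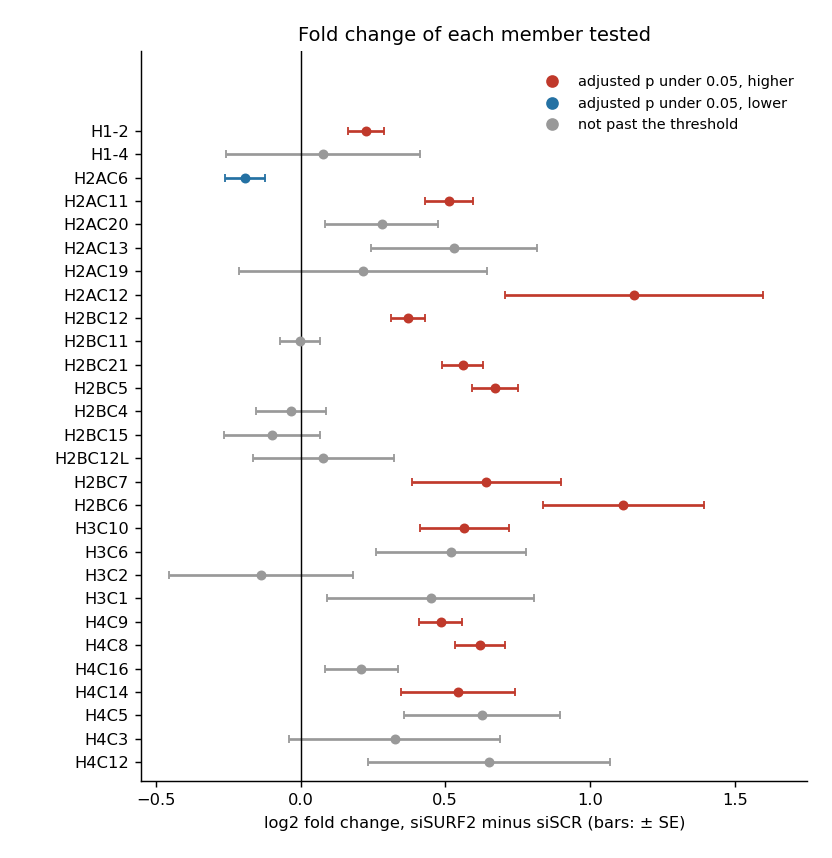
Log2 fold change of each tested member, siSURF2 minus siSCR, with bars of ± 1 SE. Points to the right of 0 prevail, and H2AC6 at -0.19 is the member called lower.

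H1 histones bind the linker DNA between nucleosomes. H1-2 (ENSG00000187837, chr6:26055787-26056428, minus strand) made up 98.4% of the counts of its class. It stood at 80.6, 68.1 and 74.7 CPM in siSCR replicates 1 to 3 and at 81.2, 88.8 and 91.0 CPM in siSURF2. All siSURF2 libraries were above all siSCR libraries, although siSURF2 replicate 1 exceeded siSCR replicate 1 by less than 1 CPM. The log2 fold change was 0.23 ± 0.06 (SE, n = 3 and 3, edgeR adjusted p = 0.0029), the smallest of the 12 members called higher. H1-4 had 118 counts in all and did not pass (0.08 ± 0.34, adjusted p = 0.87). H1-1, H1-6, H1-3 and H1-5 had 20, 6, 2 and 0 counts.

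H2A pairs with H2B in the nucleosome. The most counted H2A gene and the second one moved apart. H2AC6 (ENSG00000180573, chr6:26124145-26139116, plus strand) stood at 84.0, 68.7 and 69.6 CPM in siSCR and at 62.6, 62.7 and 69.0 CPM in siSURF2. It was lower with a log2 fold change of -0.19 ± 0.07 (edgeR adjusted p = 0.022), but the groups overlapped and siSCR replicate 1 lay well above the rest. Without that library the value was -0.10 (adjusted p = 0.18), without siSURF2 replicate 1 it was -0.15 (adjusted p = 0.15), without siSURF2 replicate 2 it was -0.17 (adjusted p = 0.077), and with upper-quartile factors it was -0.15 (adjusted p = 0.086).

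H2AC11 (ENSG00000196787, chr6:27133042-27135291, plus strand) stood at 15.2, 14.8 and 14.4 CPM in siSCR and at 21.3, 20.5 and 21.5 CPM in siSURF2. The groups were well separated and the spread within each was under 1 CPM (SD 0.41 and 0.54). Its log2 fold change was 0.51 ± 0.08 (edgeR adjusted p = 7.3e-06).

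The remaining H2A genes had 309 counts or fewer. H2AC12 had 57 counts, 6, 6 and 5 in siSCR and 15, 11 and 14 in siSURF2, and passed the threshold (1.15 ± 0.45, edgeR adjusted p = 0.030). That call was lost in 8 of 15 settings: with the spike-in sizes, without a filter, with DESeq2 (adjusted p = 0.11), and when any library but siSURF2 replicate 2 was left out (adjusted p of 0.055 to 0.11). H2AC20 and H2AC13 had 309 and 193 counts and did not pass (0.28 ± 0.20 and 0.53 ± 0.29, adjusted p = 0.24 and 0.12), and without siSCR replicate 3 H2AC13 did (0.98, adjusted p = 0.013). For H2AC20 all siSURF2 values (2.92, 2.89 and 3.20 CPM) were above all siSCR values (2.32, 2.62 and 2.46 CPM). H2AC19 had 60 counts, and 97.1% of the 50-base stretches of its model also occur in other genes, H2AC18 being the closest. Of the 11 H2A genes not tested, H2AC21 had 26 counts, H2AC4 19, H2AC18 16, H2AC14 13, H2AC7 12, H2AC17 4, H2AC16 4, H2AC8 1, and H2AC1, H2AC15 and H2AC25 0.

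H2B had the highest counts. H2BC12 (ENSG00000197903, chr6:27146418-27146798, minus strand) took 34.2% of the counts of all 70 members and 63.0% of those of its class. It stood at 201, 169 and 179 CPM in siSCR and at 230.3, 227 and 252 CPM in siSURF2. Every siSURF2 library was above every siSCR library, and the log2 fold change was 0.37 ± 0.06 (edgeR adjusted p = 6.3e-06). Its annotated model is the coding sequence of 381 bases, of which 74.1% of 50-base stretches also occur in other genes (61.4% in H2BC12L on chromosome 21), so reads can have been shared with or lost to copies. H2BC12L itself, with 217 counts and every 50-base stretch found elsewhere, did not pass (0.08 ± 0.24, adjusted p = 0.81).

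H2BC5 (ENSG00000158373, chr6:26158146-26171349, plus strand) stood at 27.4, 23.3 and 22.2 CPM in siSCR and at 39.8, 35.0 and 41.0 CPM in siSURF2. Groups did not overlap, and the log2 fold change was 0.67 ± 0.08 (edgeR adjusted p = 5.8e-08), the smallest adjusted p of the 28. H2BC21 (ENSG00000184678, chr1:149884459-149886652, minus strand) stood at 28.8, 24.7 and 26.6 CPM in siSCR and at 39.2, 38.3 and 40.5 CPM in siSURF2. The log2 fold change was 0.56 ± 0.07 (adjusted p = 1.2e-07), again with no overlap.

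Another H2B gene of similar depth, H2BC11, did not follow. H2BC11 (ENSG00000124635, chr6:27125897-27132750, minus strand) stood at 41.7, 37.5 and 36.6 CPM in siSCR and at 38.2, 36.1 and 41.0 CPM in siSURF2, and the groups overlapped throughout. Its log2 fold change was -0.0036 ± 0.069 (edgeR adjusted p = 0.97), and its sign turned with the setting. H2BC4 and H2BC15 were shallower and did not pass either: H2BC4, with 1045 counts, gave -0.03 ± 0.12 (adjusted p = 0.84), and H2BC15, with 548, gave -0.10 ± 0.17 (adjusted p = 0.65). H2BC15 overlaps 393 exon bases of H2AC15 on the opposite strand, and the strand setting of the counting is not given.

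H2BC6 and H2BC7 passed on far fewer reads. H2BC6 had 11, 21 and 20 counts in siSCR and 37, 42 and 39 in siSURF2, with no overlap of the CPM values and a log2 fold change of 1.11 ± 0.28 (edgeR adjusted p = 0.0013). An antisense gene covers 730 of the 2585 exon bases of H2BC6. H2BC7 had 32, 19 and 25 counts in siSCR and 36, 43 and 46 in siSURF2 (0.64 ± 0.26, adjusted p = 0.038). That call was lost in 7 of 16 settings, among them DESeq2 (adjusted p = 0.10), no filter (adjusted p = 0.050), and the fits without siSCR replicate 2 or 3 or siSURF2 replicate 2 or 3 (adjusted p of 0.072 to 0.18). Of the 10 H2B genes not tested, H2BC18 and H2BC13 had 46 counts each, H2BC8 16, H2BC14 11, H2BC17 9, H2BC1, H2BC3 and H2BC26 1 each, and H2BC9 and H2BC10 0.

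H3 and H4 form the tetramer at the core of the nucleosome, and the H3 genes were the least counted of the core classes. H3C10 (ENSG00000278828, chr6:27810064-27811300, plus strand) held 58.3% of the H3 counts. It stood at 4.23, 3.85 and 4.36 CPM in siSCR and at 5.72, 5.52 and 7.15 CPM in siSURF2. The groups did not overlap, and the log2 fold change was 0.57 ± 0.15 (edgeR adjusted p = 0.0030). H3C6, with 198 counts, did not pass (0.52 ± 0.26, adjusted p = 0.095), and without siSCR replicate 1 it did (0.74, adjusted p = 0.039). H3C2 and H3C1, with 115 and 90 counts, gave -0.14 ± 0.32 and 0.45 ± 0.36 (adjusted p = 0.74 and 0.30). All siSURF2 values of H3C1 were above all siSCR values, though the lowest of them (16 counts) was below the highest siSCR library (17 counts) before scaling. Of the 9 H3 genes not tested, H3C15 had 7 counts, H3C14 4, H3C13 and H3C8 1 each, and H3C3, H3C4, H3C7, H3C11 and H3C12 0.

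All 7 tested H4 genes had a positive log2 fold change in every setting tried, and 3 passed. H4C9 (ENSG00000276180, chr6:27138588-27139881, plus strand) stood at 60.9, 49.0 and 50.01 CPM in siSCR and at 68.9, 80.7 and 73.6 CPM in siSURF2. The groups did not overlap, and the log2 fold change was 0.48 ± 0.08 (edgeR adjusted p = 1.3e-05). H4C8 (ENSG00000158406, chr6:26277609-26285638, minus strand) stood at 12.5, 12.9 and 13.9 CPM in siSCR and at 20.7, 19.5 and 20.3 CPM in siSURF2. The lowest siSURF2 library was well above the highest siSCR library (0.62 ± 0.09, adjusted p = 8.0e-07).

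H4C14 was called with overlapping groups: 3.75, 2.67 and 2.21 CPM in siSCR and 4.84, 3.72 and 3.95 CPM in siSURF2 (0.54 ± 0.20, edgeR adjusted p = 0.022). The call was lost with DESeq2 (adjusted p = 0.058) and without siSCR replicate 2 or 3 or siSURF2 replicate 1 (adjusted p = 0.076, 0.15 and 0.12). H4C14 shares 97.5% of its 50-base stretches with H4C15 and 173 exon bases with H3C14 on the opposite strand, so its reads cannot be assigned with certainty. H4C5, with 197 counts, stood just outside the threshold (0.63 ± 0.27, adjusted p = 0.052). It passed with upper-quartile factors, with no factors, with a 1 CPM filter and without siSURF2 replicate 1 (adjusted p = 0.022 to 0.043). H4C16 on chromosome 12 (0.21 ± 0.13, adjusted p = 0.17), H4C3 (0.33 ± 0.36, adjusted p = 0.48) and H4C12 (0.65 ± 0.42, adjusted p = 0.20) did not pass. H4C12 had 69 counts, and every 50-base stretch of its model also occurs in H4C11. Of the 8 H4 genes not tested, H4C11 had 57 counts, H4C1 29, H4C4 22, H4C15 21, H4C2 18, and H4C6, H4C7 and H4C13 0.

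Because reads of near-identical copies can be split, the levels were also summed by class over all members, tested or not. These sums are a description and were given no test. Over the 70 genes the sum was 551 ± 47.6 CPM in siSCR and 678 ± 28.7 CPM in siSURF2 (mean ± SD, n = 3), 1.23 times as high. The H1 sum was 75.7 ± 6.15 and 88.3 ± 5.50 CPM (1.17 times), and the H2B sum 292 ± 25.2 and 374 ± 19.3 CPM (1.28 times). For H3 it was 7.50 ± 0.85 and 10.2 ± 0.96 CPM (1.36 times), and for H4 80.5 ± 7.44 and 113 ± 4.36 CPM (1.40 times). In these classes all siSURF2 libraries were above all siSCR libraries. For H1 the margin was narrow, with 82.0 CPM in siSURF2 replicate 1 and 81.8 CPM in siSCR replicate 1.

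The H2A sum did not differ in this way. It stood at 105, 88.7 and 89.9 CPM in siSCR and at 91.0, 90.3 and 97.7 CPM in siSURF2, with overlapping groups and means of 94.4 and 93.0 CPM. H2AC6 held 74.0% of the H2A counts. The other 16 H2A genes together stood at 20.6, 19.95 and 20.4 CPM in siSCR and at 28.4, 27.7 and 28.6 CPM in siSURF2, 1.39 times as high and without overlap. That split was made after the values were seen. Without H1-2 the remaining H1 genes summed to 1.27 and 1.31 CPM, with overlapping groups. Without H2BC12, H3C10 or H4C9 the H2B, H3 and H4 sums were 1.26, 1.20 and 1.40 times as high in siSURF2.

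**Figure D3:**
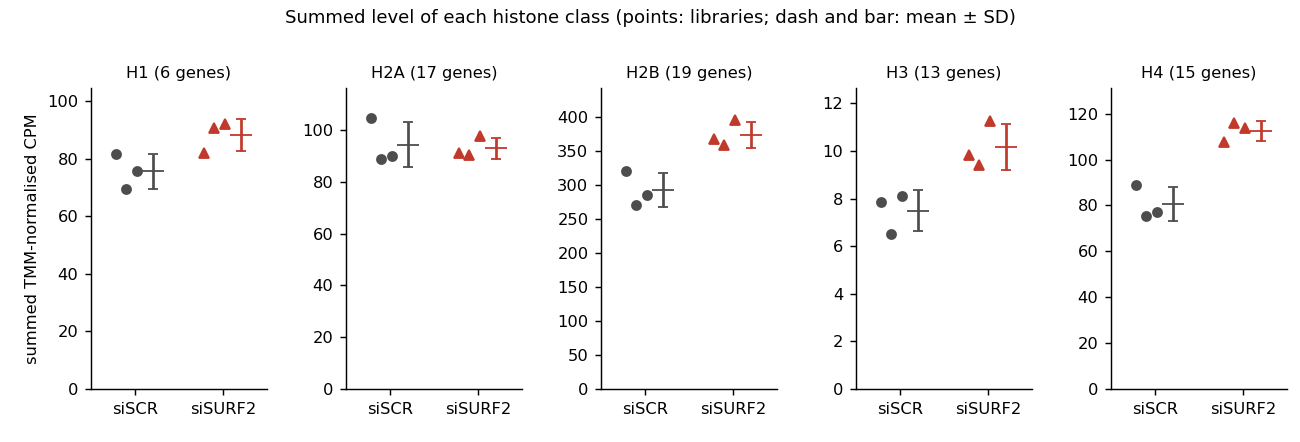
Summed TMM-normalised CPM of all members of each class in each library, with each axis starting at 0, points for libraries, and a dash and bar for the mean ± SD of 3. Groups are separate for H1, H2B, H3 and H4, narrowly so for H1, and overlap for H2A.

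A few genes held most of the counts. The 4 most counted members, H2BC12, H1-2, H2AC6 and H4C9, took 69.0% of all member counts, and the 42 members not tested took 0.60%. Divided by annotated exon length, H2BC12 was at 480.2 RPKM (CPM per kilobase) in siSCR, H1-2 at 116, H2AC6 at 44.4, H4C9 at 41.2, H2BC11 at 40.7 and H2BC5 at 27.9. The levels of H2AC6, H4C9 and H2BC11 in siSCR were close together on that scale. Lengths are those of the annotated exons, and a model that lacks the untranslated ends is shorter than the RNA, which raises its RPKM.

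Members were then grouped by the annotated 3′ end. A model was called long where a transcript ran over 100 bases past the stem-loop or was spliced after the stop codon without it. The 25 members with such a model held 50.3% of the member counts. Of these 16 were tested, 9 were higher, 1 was lower and 6 did not pass, with a median log2 fold change of 0.53. Among all genes tested 25.8% were higher and 26.2% lower. The annotated transcripts of H2AC11, H2BC21 and H4C8 reach 1761, 1729 and 1655 bases past the stem-loop, and that of H4C9 reaches 212. H2AC6 has both kinds of transcript, one reading 1128 bases past the stem-loop and one spliced around it.

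Models with no bases after the stop codon were the second large group. These 34 members held 48.5% of the counts, nearly all from H2BC12 and H1-2. There 7 were tested, 3 were higher and 0 were lower, beside the same 25.8% and 26.2% of all genes tested. The 7 members whose model ends at the stem-loop held 0.56% of the counts, with 2 tested and 0 called. In 4 members with a short 3′ end and no match, 3 were tested and 0 called. The groups also differ in depth. Median total counts per member, tested or not, were 201 for long models and 4 for those with no bases after the stop codon. For models that end at the stem-loop the median was 46, and for the short ones 111. The part of depth or of the 3′ end in these calls was not tested. The 3′ ends used in these cells were not measured, since the table gives 1 count per gene.

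The 5 members with an annotated transcript that is spliced after the stop codon and lacks the stem-loop were also read separately. Spliced transcripts that keep the stem-loop, as annotated for H4C8, H4C14 and H4C16 among others, fall outside this count. H2BC5 was higher, H2AC6 was lower, and H2BC11, H2BC4 and H2BC15 did not pass, beside 25.8% higher and 26.2% lower among all genes tested. Their log2 fold changes ran from -0.19 to 0.67.

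**Figure D4:**
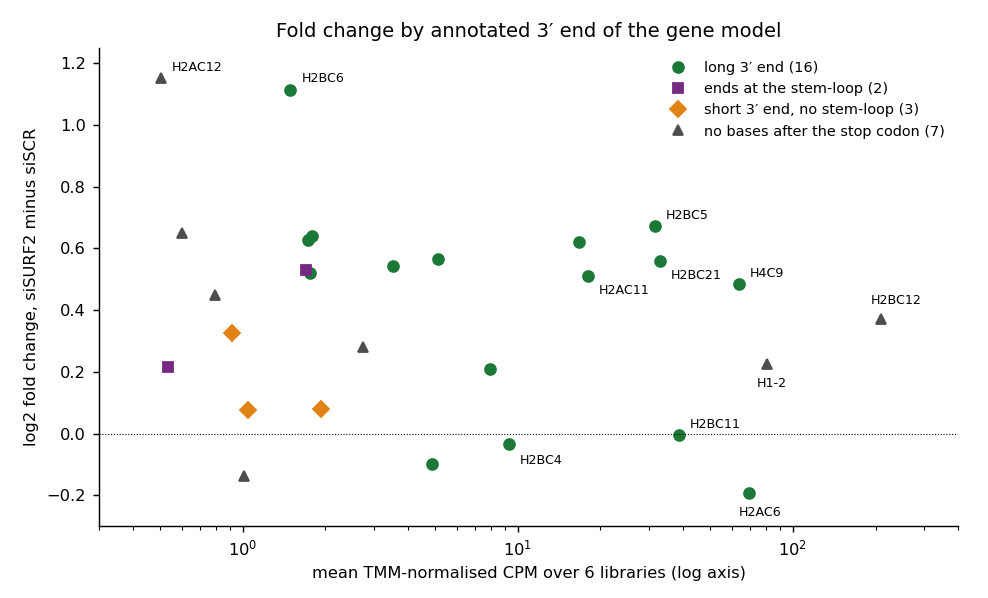
Log2 fold change of the 28 tested members against mean level over 6 libraries (TMM-normalised CPM, log axis), with symbols for the annotated 3′ end. Long 3′ ends (green circles) span the range from H2AC6 at -0.19 to H2BC6 at 1.11, and H2BC12 and H1-2, models with no bases after the stop codon, lie at the right.

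Neighbours that share a promoter interval did not always move alike. H2BC11 and H2AC11 start 292 bases apart on opposite strands, and both printed windows hold CCAAT and TATAAA. The octamer lies in the printed window of H2BC11 only, but both genes had it in the longer upstream stretch that was searched. H2AC11 was higher (0.51 ± 0.08) and H2BC11 was not (-0.0036 ± 0.069). H2BC4 and H2AC6 start 219 bases apart, and gave -0.03 ± 0.12 and -0.19 ± 0.07. H2BC21 and H2AC20, 323 bases apart, gave 0.56 ± 0.07 and 0.28 ± 0.20, and H2BC12 and H2AC12, 331 bases apart, gave 0.37 ± 0.06 and 1.15 ± 0.45. H2AC12 had only 57 counts and would not pass the filter on the siSCR libraries alone, so its value tells little here. The differences within these pairs were not tested.

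Members lie in clusters, and the counts of each are set beside the 25.8% higher and 26.2% lower of all genes tested. On chromosome 6 between 25726132 and 26285638 lie 34 members, of which 13 were tested, 5 were higher and 1 was lower. Between 27125897 and 27893843 on chromosome 6 lie 21, of which 9 were tested and 5 were higher. In the cluster on chromosome 1 between 149782689 and 149887916 lie 11, of which 4 were tested and 2 were higher. Neither H4C16 on chromosome 12 nor H2BC12L on chromosome 21 passed.

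Genes that make, process and use histone mRNA were read from the same fit. These lists were drawn up from general knowledge with earlier results of these data known. With spike-in library sizes, edgeR called 0 genes of the transcription and of the decay list below in either direction, with 2 and 1 lower at an unadjusted p under 0.05. Of 33 factors of histone gene transcription and 3′ end formation, 3 were higher, 21 were lower and 9 did not pass, with a median log2 fold change of -0.20. Every gene of this list, and of the decay, chaperone and S phase lists below, had at least 1000 counts, and among all genes of that depth 29.8% were higher and 34.3% lower. SLBP stood at 75.1, 76.0 and 78.0 CPM in siSCR and at 63.5, 60.2 and 56.1 CPM in siSURF2 (-0.35 ± 0.06, edgeR adjusted p = 9.3e-06). Its direction was opposite to that of most members. CASP8AP2, a partner of the U7 complex, was lower (-0.39 ± 0.07, adjusted p = 4.7e-05), as were the cleavage factor CSTF2T (-0.58 ± 0.06) and the Sm protein SNRPD3 (-0.45 ± 0.05). NPAT did not pass (0.14 ± 0.08, adjusted p = 0.16). The cap-binding protein NCBP1 and the U7 component LSM11 were higher (both 0.31).

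Of 24 factors of histone mRNA translation and decay, 5 were higher (20.8%), 8 were lower and 11 did not pass (median -0.09). Among all genes of that depth 29.8% were higher and 34.3% lower. ERI1, the nuclease that trims the stem-loop end, stood at 58.4, 57.1 and 58.7 CPM in siSCR and at 34.6, 37.8 and 34.6 CPM in siSURF2 (-0.70 ± 0.06, edgeR adjusted p = 1.5e-10). DIS3, a nuclease of the exosome, was lower (-0.47 ± 0.06). UPF1, the helicase of the decay complex, did not pass (-0.10 ± 0.06, adjusted p = 0.15). TUT7, which adds uridines to the mRNA end, and the kinase SMG1 were higher (0.25 ± 0.07 and 0.20 ± 0.06). The count of 5 higher was 3 with DESeq2, 3 with limma-voom, and 2 to 4 with 1 library left out, being 2 without siSCR replicate 1 or 2 and 3 without siSURF2 replicate 1 or 2. The count of 8 lower was 5 without siSURF2 replicate 1.

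Replacement and variant histones come from genes mostly expressed outside S phase too. Of 31 on the list, 26 were in the table and 13 tested: 3 were higher, 8 lower and 2 did not pass (median -0.21), beside 25.8% higher and 26.2% lower among all genes tested. H2AX, the variant phosphorylated at DNA breaks, stood at 313, 272 and 263 CPM in siSCR and at 109, 115 and 99.1 CPM in siSURF2 (-1.39 ± 0.06, edgeR adjusted p = 2.4e-14). It remained lower with spike-in library sizes, where it and the pseudogene H1-9P were the 2 genes of the list called. Its gene holds a stem-loop match of its own (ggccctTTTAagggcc) and is annotated 1044 bases past it, like the long members. H2AZ1 (-0.33 ± 0.05) and H3-3B (-0.21 ± 0.05) were lower. H3-3A, which codes for the same H3.3 protein as H3-3B, was higher (0.31 ± 0.06), as was H2AJ (0.51 ± 0.08).

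Of 32 histone chaperones and importers, 3 were higher, 19 lower and 10 did not pass (median -0.22). The shares over all genes with at least 1000 counts were 29.8% higher and 34.3% lower. ASF1B, which hands H3-H4 to the replication fork, stood at 76.5, 81.8 and 75.7 CPM in siSCR and at 49.7, 51.5 and 47.3 CPM in siSURF2 (-0.66 ± 0.06, edgeR adjusted p = 1.8e-10). ANP32E, a chaperone of H2A.Z, and KPNB1, importin beta, were lower (-0.68 ± 0.05 and -0.63 ± 0.05), and CHAF1A and NASP less so (-0.16 ± 0.05 and -0.21 ± 0.05). ATRX, which acts with DAXX to deposit H3.3, and CABIN1 of the HIRA complex were higher (0.29 ± 0.05 and 0.25 ± 0.05). With spike-in library sizes ANP32E was the 1 gene of this list still called.

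Markers of S phase entry and DNA synthesis were lower almost throughout: 0 of 30 were higher, 27 were lower and 3 did not pass (median -0.38). Over all genes with at least 1000 counts the shares were 29.8% higher and 34.3% lower. SLBP is among the 27 and was also counted in the transcription and 3′ end list. By edgeR, DESeq2 and limma-voom alike 0 were higher, and by edgeR 0 were higher at an unadjusted p under 0.05 too. UNG stood at 99.6, 102 and 101 CPM in siSCR and at 47.6, 49.7 and 42.5 CPM in siSURF2 (-1.11 ± 0.06, edgeR adjusted p = 5.7e-15). MCM6, a subunit of the replicative helicase, was lower (-0.93 ± 0.05), as was CCNA2 (-0.27 ± 0.05). CCNE1 and CCNE2 did not pass (-0.0010 ± 0.064 and 0.14 ± 0.12), and without siSCR replicate 2 CCNE2 was higher (0.32 ± 0.13, edgeR adjusted p = 0.046). With spike-in library sizes 5 of the 30 were called lower, UNG and MCM6 among them. The higher level of RNA from 12 replication-dependent histone genes stood beside lower levels of S phase genes in the same polyA libraries. In bulk RNA, fewer cells in a phase and less RNA per cell cannot be told apart, and the part of either in the members' values was not tested.

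**Figure D5:**
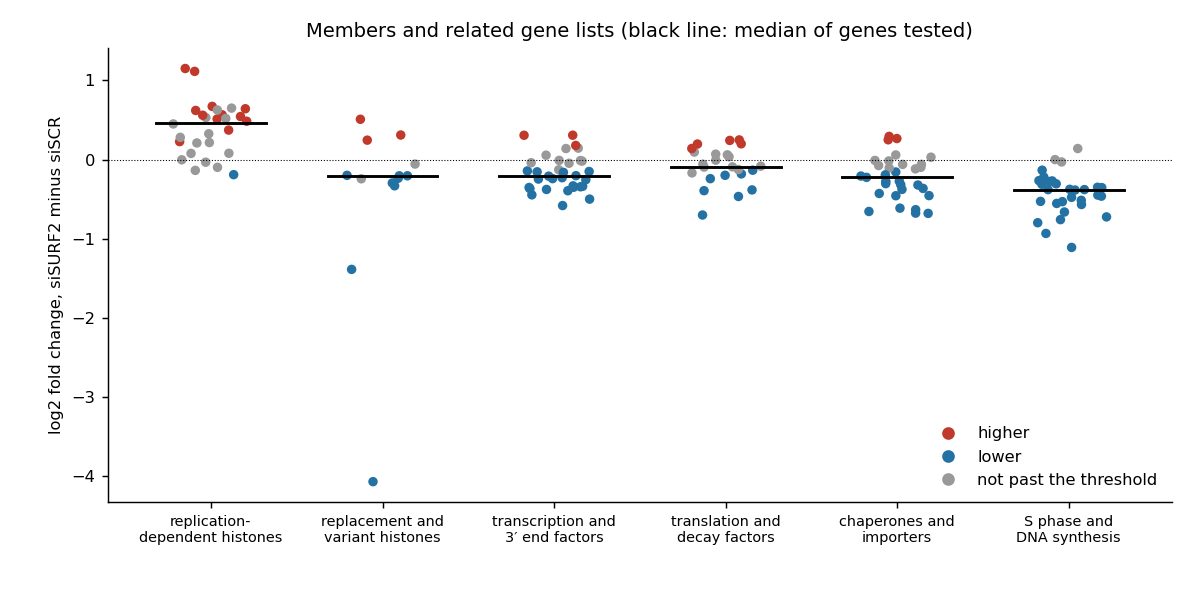
Log2 fold change, siSURF2 minus siSCR, of each tested gene among the members and in 5 related lists, coloured by call, with a black line at each list's median. The median is 0.47 for the members and -0.09 to -0.38 for the other lists. SLBP is in both the transcription and the S phase list. The point at -4.07 is H1-9P, a pseudogene with 40 counts, named after its value was seen.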

How the data were processed

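For the 6 libraries the authors deposited unnormalised read counts per gene. Per the submitters' processing notes, GRCh38 was the build, with fastp 0.23.1 and STAR 2.5.2b among the tools. No source used here gives the counting tool, annotation or strand setting. The 92 ERCC spike-in rows stayed out of library sizes and tests. A gene name table named 56948 rows and GENCODE release 29 another 499, and 604 had no symbol. RefSeq listed 4 members under an older name, and 13 rows that match the name pattern but are not protein coding were left out.

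Low counts were removed by edgeR 4.0.16 (filterByExpr, at least 10 counts, total of 15). TMM scaling and the robust quasi-likelihood F-test followed, in R 4.3.3, across 17561 genes, with Benjamini-Hochberg adjustment and a threshold of 0.05. 1 CPM was 16.8 to 20.01 counts. The 16 alternatives were limma-voom (limma 3.58.1), DESeq2 1.42.0, other factors, filters and priors, a replicate block and leaving out each library. The fit was tested on simulated data. Every tested member could be named. Other lists gave the genes of the naming rule, 1 of which is not reported here, and up to 2 per direction with the smallest adjusted p. Members and lists were chosen with earlier results of these data known.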

Additional observations from a re-analysis of the deposited data

How the results depend on the processing

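With library sizes set by the ERCC counts, 802 genes were higher and 825 lower over the whole table, 0 members were higher and 0 lower, 0 and 0 of the transcription and 3′ end factors, 0 and 0 of the translation and decay factors, 0 higher and 2 lower of the replacement histones, 0 higher and 1 lower of the chaperones, and 5 lower of the S phase markers. The 1 lower member became 0 with upper-quartile factors, and 0 to 1 when 1 library was left out. Higher translation and decay factors numbered 3 with DESeq2, 3 with limma-voom and 2 to 4 with 1 library left out, lower ones 5 to 9. Higher S phase markers numbered 0 to 1 with 1 library left out. Sign changes were seen in 5 of the 28 tested members, none of them called. H2BC11 was 0.043 with upper-quartile factors, 0.023 without factors, 0.016 without a filter and 0.0010 with the 1 CPM filter, and -0.051 to 0.044 with 1 library left out. H2BC4 was 0.011 with upper-quartile factors and -0.11 to 0.062 with 1 library left out. H1-4 was -0.014 with limma-voom and -0.33 to 0.33 with 1 library left out, where H2BC12L ran from -0.14 to 0.22 and H3C2 from -0.29 to 0.057. The cause was not tested. The labels tie same-numbered libraries of the groups by the number alone. Correlations of their deviations were 0.0035, -0.092 and -0.039. With 3 libraries per group such values cannot tell whether same-numbered libraries were prepared together. With the replicate number as a block 12 members were higher and 1 lower, 4478 genes higher and 4550 lower. The 23 other tested members kept their sign in every setting. Summed class levels moved by less than the spread between libraries in each setting, and the H2A sum, whose groups overlap, changed sign with upper-quartile factors, without factors, and without siSCR 1 or siSURF2 1. For members under about 1 CPM, depth limits what could be called.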
